A study of Mus musculus with 10 samples.

Results

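The genes described here are 10 macrophage genes of mouse, namely C1qa, C1qb, C1qc, Mrc1, Csf1r, Lyz2, Itgam, Cd68, Lyve1 and Cd163, chosen by name, with no measured value in the rule. All 10 were found among the 28454 gene symbols of the deposited tables. They were measured in CD31-positive cells from B16F10 melanomas, a mouse melanoma line grown as a tumour. The mice with Shb inactivated carried Shbflox/flox together with Cdh5-CreERt2 (6 libraries), and the wild-type mice carried Cdh5-CreERt2 (4 libraries), so both groups held the recombinase. All mice were adult. Cdh5 is active in endothelium, and the fused receptor domain makes the recombinase inducible, so Shb was targeted in endothelial cells. The sources used here name no inducing treatment and do not say whether tumours were pooled. The design counts 6 inactivated and 4 wild-type mice, taken here as 1 library each, and whether any spread is technical cannot be read from the labels. The tissue label reads tumours, while the source label names lungs as well. Every library came from cells depleted of CD11b-bearing cells before CD31 selection, per the labels' protocols. Values are FPKM, fragments scaled by transcript length and by the library's mapped fragments.

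Macrophages make all 3 chains of C1q, the molecule that binds antibody or dying cells and starts the classical complement cascade. They clear bound material through endocytic and scavenger receptors such as the mannose receptor and CD163, and digest it in lysosomes. CSF1R is the growth factor receptor that keeps macrophages alive, and CD11b is an integrin chain shared by macrophages, monocytes and neutrophils. LYVE1 binds hyaluronan and is known from lymphatic endothelium as well as from macrophages that lie along vessels.

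The targeted gene followed the labels, with Shb at 0.942 ± 0.414 FPKM in Shb-inactivated libraries (SD, n = 6) and 3.68 ± 1.19 FPKM in wild-type libraries (SD, n = 4; exact permutation p = 0.00476, two-sided, the smallest that 210 splits allow; adjusted limma p 0.989). Endothelial markers were high throughout, and Pecam1, which encodes CD31, averaged 963 ± 137 FPKM in Shb-inactivated and 759 ± 138 FPKM in wild-type libraries. The sum of all FPKM ran from 477329 to 565184 in Shb-inactivated and from 512696 to 576687 in wild-type libraries. Read totals are unknown. The commonest low value of 273 odorant and vomeronasal receptor genes, taken as a rough guide to the worth of a fragment, was 0.07 FPKM for replicate 2 of the Shb-inactivated group, 0.1 FPKM for replicate 1 of the wild type and 0.01 to 0.03 FPKM elsewhere. Values near these are the least precise.

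The stretches of 250 bases before the transcription start are shown for C1qb, Mrc1, Itgam and Cd68, because the C1q and mannose receptor genes shared a profile over the libraries while Itgam and Cd68 kept very different shares of their highest value. They come from a set of RefSeq promoter stretches on GRCm38.p6, and 7 of the 10 genes had an entry in that set. They are written 5′ to 3′ on the gene's strand. Capitals mark GAGGAA or its reverse complement TTCCTC, the core read by PU.1, an ETS factor of myeloid cells.
C1qb: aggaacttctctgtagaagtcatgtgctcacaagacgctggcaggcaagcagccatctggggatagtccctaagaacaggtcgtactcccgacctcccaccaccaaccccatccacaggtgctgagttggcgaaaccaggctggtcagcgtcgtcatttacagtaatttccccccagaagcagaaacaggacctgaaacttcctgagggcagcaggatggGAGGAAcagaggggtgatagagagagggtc
Mrc1: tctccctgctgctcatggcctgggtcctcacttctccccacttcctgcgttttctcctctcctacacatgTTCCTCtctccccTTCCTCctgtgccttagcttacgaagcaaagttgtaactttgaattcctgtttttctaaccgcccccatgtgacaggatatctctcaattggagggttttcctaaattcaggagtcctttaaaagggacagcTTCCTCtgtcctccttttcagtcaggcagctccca
Itgam: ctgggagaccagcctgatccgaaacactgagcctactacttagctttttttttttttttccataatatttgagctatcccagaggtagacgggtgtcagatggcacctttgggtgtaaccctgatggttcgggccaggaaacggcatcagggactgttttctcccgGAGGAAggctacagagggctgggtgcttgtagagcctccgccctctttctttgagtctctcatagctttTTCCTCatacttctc
Cd68: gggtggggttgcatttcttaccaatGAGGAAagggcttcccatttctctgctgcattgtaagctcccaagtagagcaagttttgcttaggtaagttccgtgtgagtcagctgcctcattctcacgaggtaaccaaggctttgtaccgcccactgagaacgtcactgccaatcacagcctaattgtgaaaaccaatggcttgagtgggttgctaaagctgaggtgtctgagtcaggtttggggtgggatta
The C1qb stretch is chr4:136886201-136886450 (minus strand) and the Mrc1 stretch chr2:14229164-14229413 (plus strand). The Itgam stretch is chr7:128062390-128062639 (plus strand) and the Cd68 stretch chr11:69666171-69666420 (minus strand). The core occurred 3 times before Mrc1, 2 times before Itgam and once each before C1qb and Cd68. Of the other 3 genes with an entry, C1qc held the core once, and Cd163 and Lyz2 did not hold it. Either strand of it is found in 23.3% of 32841 mouse promoter stretches of this length. TGANTCA, the AP-1 letters, occurred 2 times before Cd68, in none of the other 3 stretches, and in 6.75% of all stretches. TTNNGCAA, the C/EBP letters, occurred once before Cd68, in none of the other 3, and in 9.57% of all stretches. Such matches describe letters and not bound sites.

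The C1q chains had nearly the same profile over the libraries. C1qa, the A chain, was 3.44, 2.03, 427.97, 494.79, 1.02 and 1.64 FPKM in Shb-inactivated replicates 1 to 6, and 21.1, 47.78, 588.44 and 1.11 FPKM in wild-type replicates 1 to 4. Shb-inactivated replicates 3 and 4 and wild-type replicate 3 were high, wild-type replicates 1 and 2 lay between, and the other 5 libraries were at 1.02 to 3.44 FPKM, so the groups overlapped. C1qb, the B chain, was 3.67, 1.8, 389.98, 418.35, 1.75 and 1.91 FPKM in the Shb-inactivated libraries and 22.71, 44.29, 537.45 and 1.3 FPKM in the wild-type libraries. C1qc, the C chain, ran from 0.67 to 344.17 FPKM in Shb-inactivated and from 0.9 to 390.93 FPKM in wild-type libraries. The same 3 libraries were highest for each chain. In the 5 libraries with more than 10 FPKM of each chain, C1qa per C1qb was 1.10 and 1.18 in the rich Shb-inactivated libraries (replicates 3 and 4), and 0.929, 1.08 and 1.09 in wild-type replicates 1 to 3. C1qc per C1qb was 0.872 and 0.823 in those Shb-inactivated libraries, and 0.815, 0.750 and 0.727 in those wild-type libraries. The 3 genes lie side by side on the minus strand of chromosome 4 in GRCm38 (GENCODE vM21), with C1qb at 136880129 to 136886187, C1qc at 136889804 to 136893065 and C1qa at 136895917 to 136898803.

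**Figure D1:**
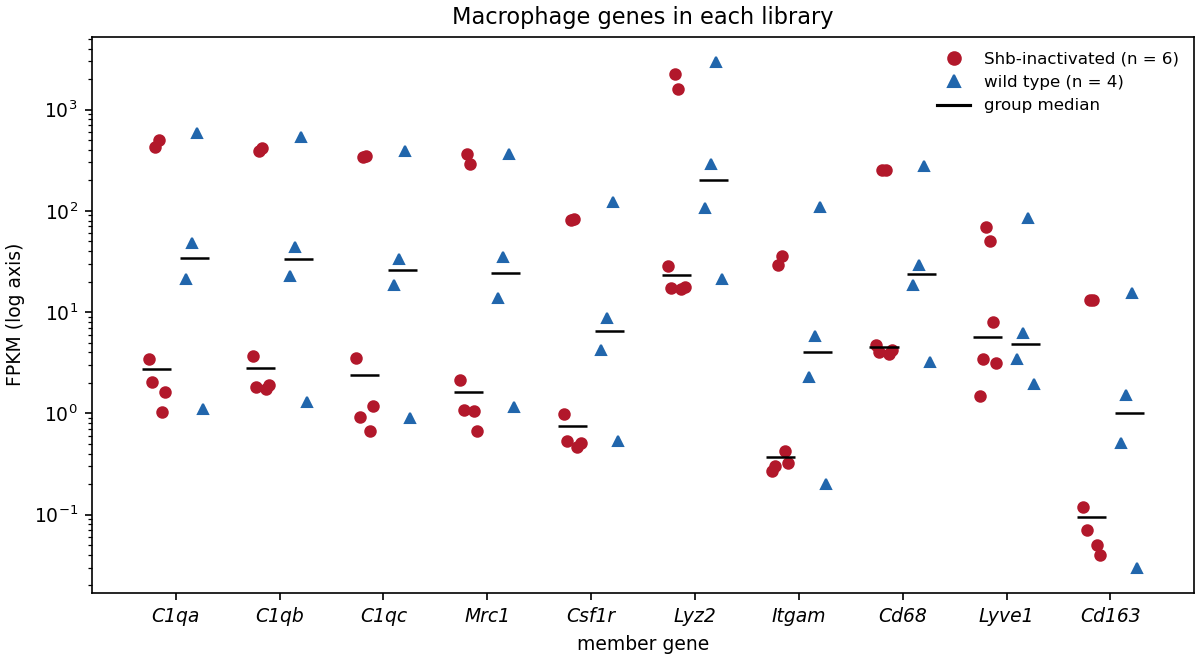
FPKM of the 10 macrophage genes on a log axis, one point per library, with Shb-inactivated libraries (circles, n = 6) left of wild-type libraries (triangles, n = 4) and the group median as a bar. For every gene 2 Shb-inactivated libraries and 1 wild-type library stand at the top, and the groups overlap.

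The receptors repeated this profile. Mrc1, the mannose receptor, was 2.15, 1.07, 365.93, 292.15, 1.06 and 0.67 FPKM in Shb-inactivated replicates 1 to 6, and 13.75, 34.98, 363.3 and 1.16 FPKM in wild-type replicates 1 to 4. Its highest library was Shb-inactivated replicate 3, the only member for which wild-type replicate 3 was not the highest. Csf1r, the CSF1 receptor, was 0.98, 0.53, 80.78, 82.47, 0.47 and 0.51 FPKM in Shb-inactivated libraries, and 4.21, 8.7, 122.96 and 0.53 FPKM in wild-type libraries. Cd163, the haemoglobin scavenger receptor, was the lowest member. It had 13.1 and 13.3 FPKM in Shb-inactivated replicates 3 and 4 and 0.04 to 0.12 FPKM in the other inactivated libraries, against 0.51, 1.52, 15.5 and 0.03 FPKM in the 4 wild-type libraries. Its lowest values are close to the commonest low value of the receptor genes and are imprecise. Cd163 per Mrc1 stayed between 0.0358 and 0.0654 in Shb-inactivated and between 0.0259 and 0.0435 in wild-type libraries, while Mrc1 itself spanned 546-fold. Mrc1 lies on chromosome 2 at 14229392 to 14332057 and Cd163 on chromosome 6 at 124304656 to 124330527, both on the plus strand.

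The lysosomal and integrin members differed more in the share they kept. Cd68, a glycoprotein of late endosomes and lysosomes, was 4.74, 4.02, 250.93, 252.45, 3.86 and 4.21 FPKM in Shb-inactivated libraries, and 18.47, 29.36, 274.5 and 3.2 FPKM in wild-type libraries. The 5 lowest libraries held it at a nearly level 3.2 to 4.74 FPKM. Lyz2, the lysozyme of myeloid cells and the most abundant member, was 28.67, 17.29, 2263.86, 1577.06, 16.89 and 17.78 FPKM in Shb-inactivated libraries, and 107.07, 292.16, 2943.58 and 21.43 FPKM in wild-type libraries. Lyz2 per Csf1r ranged over 2.11-fold among all libraries, from 19.1 in Shb-inactivated replicate 4 to 40.4 in wild-type replicate 4. Itgam, the CD11b chain, was 0.27, 0.3, 29.31, 35.88, 0.42 and 0.32 FPKM in Shb-inactivated libraries, and 2.27, 5.85, 109.11 and 0.2 FPKM in wild-type libraries. Wild-type replicate 3 stood above both rich inactivated libraries, which none of the other 9 members showed to this extent. Cd68 lies on chromosome 11 at 69664213 to 69666153 and Lyz2 on chromosome 10 at 117277331 to 117282321, both on the minus strand, and Itgam on chromosome 7 at 128062640 to 128118491 on the plus strand.

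All libraries were CD11b-depleted, so loss was read as the share of a gene's value in its highest library, with no test. By the median share over the 10 libraries the order, lowest share first, was Itgam (1.23%), Cd163 (2.03%), C1qa (2.09%), Csf1r (2.11%), Mrc1 (2.17%), Lyz2 (2.31%), C1qb (2.45%), C1qc (2.82%), Cd68 (4.23%) and Lyve1 (5.61%). Genes from Cd163 to C1qb in this order had close shares and changed places from library to library. Each median lies between the poor and the richer libraries, and leaving out any single library moved that of Itgam by over 1.5 times. Without any one of Shb-inactivated replicates 3 and 4 and wild-type replicates 1 to 3 it was 0.385% for Itgam and 0.774% for Cd163, and without any one of the other 5 libraries 2.08% for Itgam and 3.29% for Cd163. Itgam stayed at the head of the order each time, while Cd163 took place 2 or 5. Each share was still taken of the highest of all 10 libraries, which for Itgam was wild-type replicate 3. With that library left out of the shares as well, the highest Itgam is 35.88 FPKM and its median 0.42 FPKM. For Mrc1 these are 365.93 and 2.15 FPKM, a smaller share, so Itgam then does not head the order. The place of Itgam thus rests on wild-type replicate 3. Cd68 and Lyve1 kept places 9 and 10 except without Shb-inactivated replicate 5, where Lyve1 took place 7 and Cd68 place 10. In Shb-inactivated replicates 1, 2, 5 and 6 and in wild-type replicate 4, Cd68 and Lyve1 kept the highest shares of all 10 members. Cd68 kept 1.41% to 1.73% in those inactivated libraries and 1.17% in wild-type replicate 4. The C1q genes, Mrc1, Csf1r and Cd163 kept 0.171% to 0.908% in those inactivated libraries and 0.189% to 0.431% in wild-type replicate 4. Itgam owed its place at the head of the order to the richer libraries as well, with 26.9% and 32.9% in Shb-inactivated replicates 3 and 4, where the other 9 members kept 53.6% to 100%. In Shb-inactivated replicate 5, Itgam at 0.385% was not among the 6 lowest members.

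**Figure D2:**
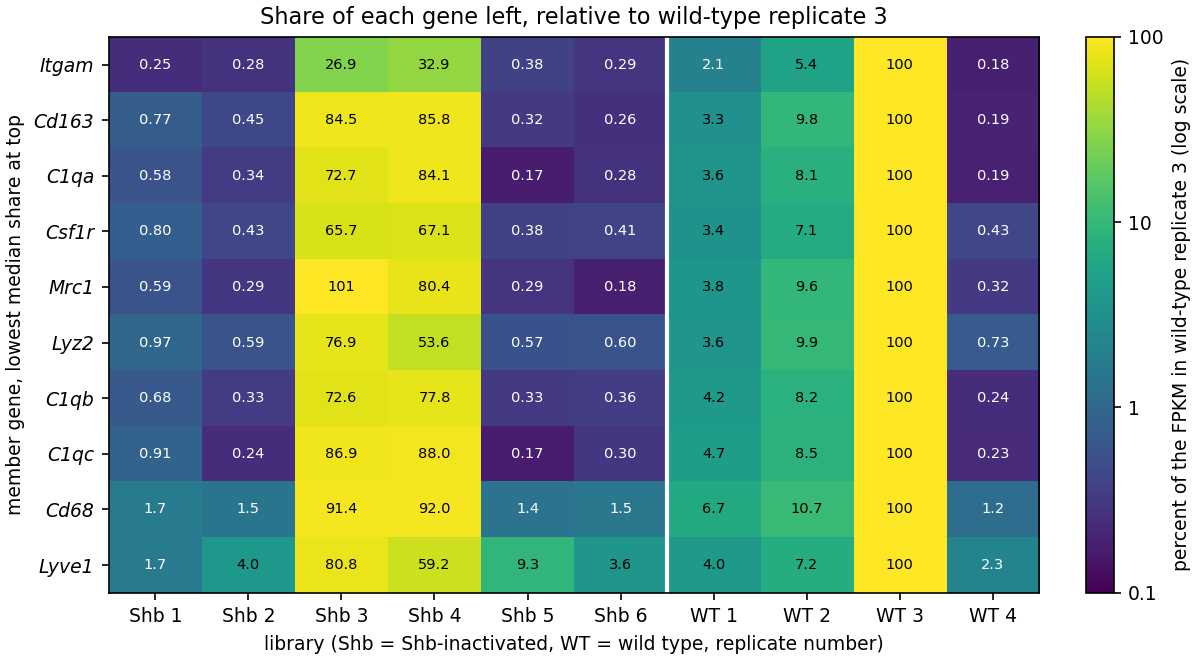
Each gene's FPKM as a percent of its value in wild-type replicate 3 (colour on a log scale, numbers in the cells), with Shb-inactivated replicates 1 to 6 left of wild-type replicates 1 to 4 and genes ordered by their median share of the highest library, lowest at the top. Cd68 and Lyve1 keep 1.2% to 9.3% in the 5 poorest libraries, where the other genes keep under 1%.

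Transcripts of monocytes and neutrophils moved with the high Itgam of wild-type replicate 3. Itgam per Csf1r was 0.363 and 0.435 in the rich Shb-inactivated libraries, against 0.887 in wild-type replicate 3. The neutrophil list, 9 genes led by the calprotectin genes S100a8 and S100a9, summed to 11.01 and 24.0 FPKM in those inactivated libraries and to 996 FPKM in wild-type replicate 3, and to 1.63 to 5.55 FPKM in the other inactivated and 2.05 to 28.0 FPKM in the other wild-type libraries. Its granule genes Mpo, Elane, Ngp, Camp and Ltf were at or near 0, at most 0.42 FPKM in any library. Ccr2, the chemokine receptor of inflammatory monocytes, was 8.25 and 15.52 FPKM in Shb-inactivated replicates 3 and 4 against 103.99 FPKM in wild-type replicate 3. The 8-gene monocyte list summed to 58.1 to 275 FPKM in Shb-inactivated and 137 to 459 FPKM in wild-type libraries, and was highest in wild-type replicate 3. Its Plac8 averaged 17.9 ± 4.20 FPKM in Shb-inactivated and 46.7 ± 43.6 FPKM in wild-type libraries. Fn1, also made by other cells, averaged 92.3 ± 77.5 FPKM in Shb-inactivated and 111 ± 20.1 FPKM in wild-type libraries. The part of these cells in the Itgam values was not tested.

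Lyve1 followed Mrc1 in 5 libraries and left it in the other 5. Lyve1 was 1.47, 3.44, 69.34, 50.81, 8 and 3.11 FPKM in Shb-inactivated replicates 1 to 6, and 3.47, 6.16, 85.79 and 1.94 FPKM in wild-type replicates 1 to 4. Per unit of Mrc1 there were 0.190 and 0.174 units in replicates 3 and 4 of the inactivated group, and 0.252, 0.176 and 0.236 in wild-type replicates 1, 2 and 3, a narrow band although Mrc1 itself ran from 13.75 to 365.93 FPKM there. In Shb-inactivated replicates 1, 2, 5 and 6 the ratio was 0.684, 3.22, 7.55 and 4.64, and in wild-type replicate 4 it was 1.67. At the ratio of wild-type replicate 3, the Mrc1 of those inactivated libraries would come with 0.508, 0.253, 0.250 and 0.158 FPKM of Lyve1 and that of wild-type replicate 4 with 0.274 FPKM. The measured values were 2.90, 13.6, 32.0 and 19.7 times this in the inactivated libraries and 7.08 times this in wild-type replicate 4. Since the libraries fall into separate clusters, no correlation is given. Lyve1 lies on chromosome 7 at 110850607 to 110863239 on the minus strand.

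**Figure D3:**
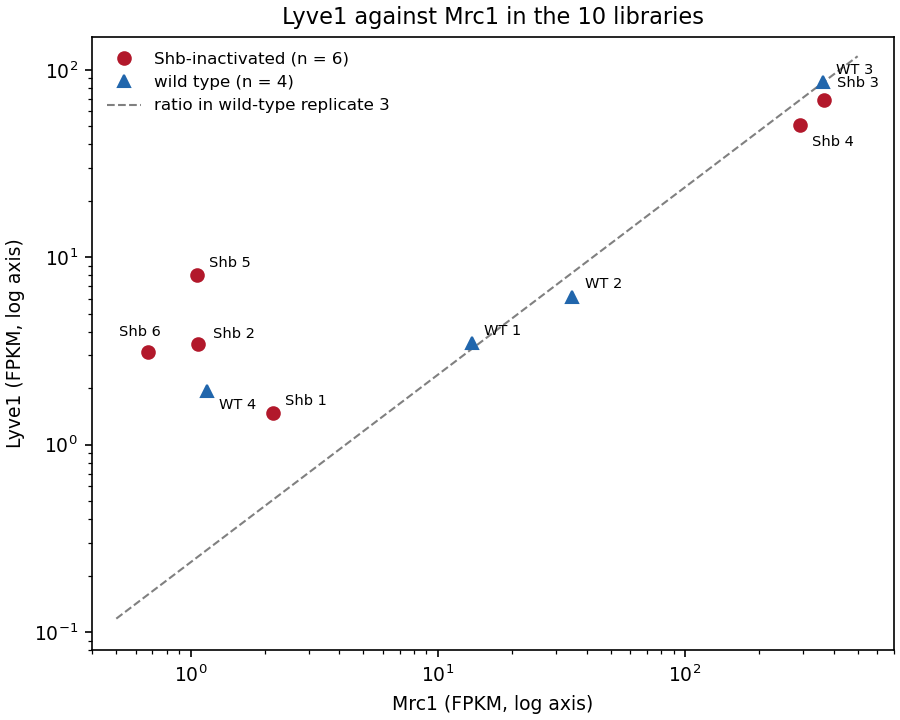
Lyve1 against Mrc1 in FPKM, both on log axes, with a circle for each Shb-inactivated library (Shb) and a triangle for each wild-type library (WT), numbered by replicate, and a dashed line at the Lyve1 to Mrc1 ratio of wild-type replicate 3. The 5 libraries with at least 13.75 FPKM of Mrc1 lie along the line, and the 5 with at most 2.15 FPKM lie above it.

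The log2 ratio of Lyve1 to Mrc1, with 0.1 FPKM added to each, averaged 0.17 ± 2.32 in Shb-inactivated libraries (SD, n = 6) and -1.46 ± 1.45 in wild-type libraries (SD, n = 4). The difference of 1.63 was not told apart from 0 (exact permutation p = 0.229, two-sided). The ratio was highest in the libraries poor in Mrc1, namely Shb-inactivated replicates 1, 2, 5 and 6 and wild-type replicate 4. A group difference in the ratio cannot be told apart from this uneven share of poor libraries. Lymphatic markers were mixed beside the excess of Lyve1. Mmrn1, a multimerin of lymphatic and other endothelium, was highest in Shb-inactivated replicate 5 at 10.88 FPKM, the library with the most Lyve1 outside the 3 rich ones, and was 0.9 to 4.49 FPKM in the other inactivated and 2.56 to 6.26 FPKM in the wild-type libraries. Ccl21a, a lymphatic chemokine, was 2.85 and 1.48 FPKM in Shb-inactivated replicates 5 and 6, 1.26 FPKM in wild-type replicate 4, and at most 0.47 FPKM elsewhere. Prox1, the factor that defines lymphatic identity, was near 0 throughout, at 0.07 to 0.35 FPKM in Shb-inactivated and 0.09 to 0.44 FPKM in wild-type libraries. Flt4, also expressed by tumour blood vessels, averaged 58.1 ± 16.6 FPKM in Shb-inactivated and 46.2 ± 7.91 FPKM in wild-type libraries, and the list of 5 measured lymphatic genes summed to 40.2 to 86.2 FPKM in Shb-inactivated and 38.3 to 60.3 FPKM in wild-type libraries. The part of lymphatic cells in the Lyve1 values was not tested.

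Likeness was measured as the SD over the 10 libraries of the log2 ratio between genes, with 0.1 FPKM added, where a small SD means a constant ratio. Among 9116 genes with a mean of at least 5 FPKM that are not members, those most like the geometric mean of the 10 members were C3ar1 (SD 0.16), Nxpe5 (0.24), AF251705 (0.28), C5ar1 (0.29) and Msr1 (0.29). C3ar1 and C5ar1 encode the receptors for the complement fragments C3a and C5a, and Msr1 is a scavenger receptor of macrophages. C3ar1 was 45.43 and 39.66 FPKM in the rich Shb-inactivated libraries and 0.23 to 0.56 FPKM in the other inactivated libraries, against 2.48, 5.62, 59.85 and 0.25 FPKM in the 4 wild-type libraries. The genes most like Lyve1 were Ccrl2 (SD 0.43), Tlr13 (0.45), Ms4a6d (0.52), Lgals3 (0.52) and Ifi27l2a (0.53). Ccrl2 is an atypical chemokine receptor, Tlr13 a receptor for bacterial RNA and Lgals3 encodes galectin-3. Mrc1 was 2540th in likeness to Lyve1 of 9124 genes (SD 2.1) and Cd68, the nearest member ranked, 119th (SD 1.12). Cd163, with a mean under 5 FPKM, was not ranked. The SD also grows where 2 genes rise together over unlike ranges. Mrc1 spanned 546-fold and Lyve1 58.4-fold, so the low place of Mrc1 does not show that the 2 genes vary apart. All genes share the same libraries and their unknown depth, so these values are descriptions.

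The comparison of Shb-inactivated with wild-type mice put none of these genes past the threshold. Of the 10 members 9 had a log2 fold change below 0 and Lyve1 was above 0, and the median over the 10 members was -1.002 on the log2(FPKM + 1) scale, against 0.01 over all 12805 genes tested. A fold change below 0 was found in 48.8% of all genes, and one below -0.5 in 8 members and in 6.33% of all genes. No member passed an adjusted p of 0.05, and 0 of all genes did (0%, limma), while 442 genes had an unadjusted p under 0.05 (3.45%), none of them a member. All 10 members passed the filter on low values.

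C1qa averaged 155 ± 238 FPKM in Shb-inactivated libraries (SD, n = 6) and 165 ± 283 FPKM in wild-type libraries (SD, n = 4), with a log2 fold change of -1.11 (95% interval -5.67 to 3.44; limma adjusted p 0.989). Mrc1 averaged 111 ± 171 FPKM in Shb-inactivated and 103 ± 174 FPKM in wild-type libraries, with a log2 fold change of -1.13 (interval -5.54 to 3.27), so that the mean FPKM and the mean log2 value pointed opposite ways. The same held for C1qc (115 FPKM in Shb-inactivated and 111 FPKM in wild-type libraries), Cd68 (86.7 FPKM in Shb-inactivated and 81.4 FPKM in wild-type libraries) and Cd163 (4.45 FPKM in Shb-inactivated and 4.39 FPKM in wild-type libraries). Lyz2 had the lowest unadjusted p (0.525, limma) and a log2 fold change of -1.20 (interval -5.24 to 2.84), with 654 ± 1005 FPKM in Shb-inactivated and 841 ± 1406 FPKM in wild-type libraries. Lyve1 averaged 22.7 ± 29.6 FPKM in Shb-inactivated and 24.3 ± 41.0 FPKM in wild-type libraries, with a log2 fold change of 0.17 (interval -2.46 to 2.79). Its mean FPKM and mean log2 value also pointed opposite ways, with the mean FPKM lower and the mean log2 value higher in Shb-inactivated libraries. Exact permutation p-values of the 10 members, two-sided and without adjustment, were 0.571 to 0.881. The widest interval was that of C1qa, and the narrowest were those of Cd163 (-2.52 to 2.19) and Lyve1. For each gene, any difference within its own interval remained compatible with these libraries.

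The directions depended on single libraries. Without wild-type replicate 3 the median over the members was 0.32, and all 10 log2 fold changes were above 0, from 0.06 for Lyz2 to 1.23 for Lyve1. Leaving out replicate 3 or 4 of the inactivated group gave medians of -1.76 and -1.79, leaving out its replicate 1, 2, 5 or 6 gave -0.66 to -0.51, and leaving out wild-type replicate 4 gave -2.04. Cd163 also turned above 0, to between 0.07 and 0.09, without replicate 1, 2, 5 or 6 of the inactivated group. Lyve1 turned below 0 without replicate 3 or 4 of the inactivated group (-0.38 and -0.29) and without wild-type replicate 1 or 4 (-0.20 and -0.40). With a pan-myeloid score as a covariate, the mean log2 value of 10 leukocyte genes such as Tyrobp and Ctss that are not members, the median was 0.15, the intervals narrowed and 2 members were below 0, where 47.5% of all genes were. C1qa then had a log2 fold change of 0.16 (interval -0.80 to 1.11), Lyve1 0.87 (-0.08 to 1.82) and Cd163 0.50 (0.11 to 0.89), the last with an adjusted limma p of 0.839. Before adjustment, limma's p for Cd163 in that fit was 0.0177. Cd163 was at most 0.12 FPKM in Shb-inactivated replicates 1, 2, 5 and 6 and 0.03 FPKM in wild-type replicate 4. There log2(FPKM + 1) is nearly level, so its interval rests partly on values near the floor. In that fit 5.22% of all genes had an unadjusted p under 0.05. The summed FPKM of the pan-myeloid list ran from 207 to 1652 in Shb-inactivated and from 242 to 2658 in wild-type libraries, with all its 10 genes above 0 everywhere. In bulk libraries, fewer macrophages and less RNA per macrophage cannot be told apart.

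**Figure D4:**
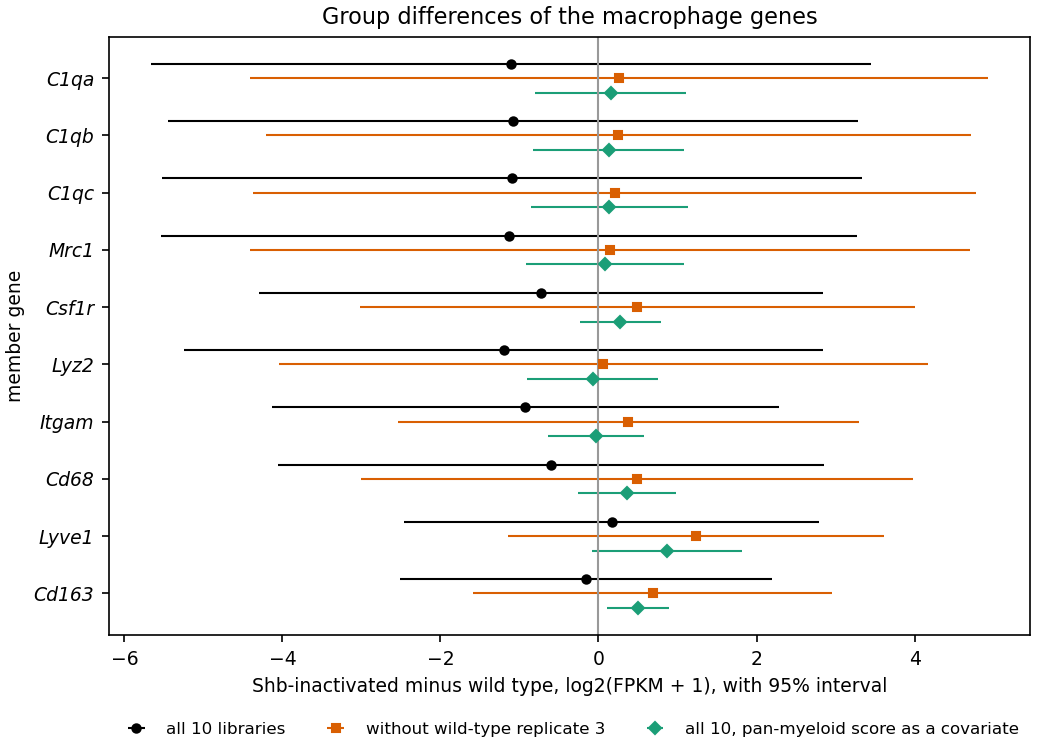
Group difference of mean log2(FPKM + 1), Shb-inactivated less wild type, with its 95% limma interval, for all 10 libraries (circles), without wild-type replicate 3 (squares) and with the pan-myeloid score as a covariate (diamonds). With all libraries 9 of 10 genes lie below 0, without wild-type replicate 3 all lie above 0, and the interval of Cd163 with the covariate, 0.11 to 0.89, is the only one that leaves out 0. That gene is near the floor in many libraries.

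Leaving out the 3 rich libraries (Shb-inactivated replicates 3 and 4 and wild-type replicate 3), which were set apart by these same transcripts gave a median of -1.74. Since that choice rests on the genes measured, no test is read from it. In the 7 libraries left, C1qa was at most 3.44 FPKM in the inactivated ones and was 21.1, 47.78 and 1.11 FPKM in the wild-type ones. Lyve1 was nearest 0, at -0.02.

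Other macrophage genes were high in the same 3 libraries. Of the 22 genes on the macrophage list, 21 were found and 17 tested, of which none passed in either direction and 15 were below 0 (median -0.60). Apoe, an apolipoprotein that macrophages secrete in quantity, averaged 371 ± 534 FPKM in Shb-inactivated and 423 ± 616 FPKM in wild-type libraries, and Pf4, a chemokine of platelets and macrophages, averaged 196 ± 261 FPKM in Shb-inactivated and 296 ± 423 FPKM in wild-type libraries. The summed list ran from 111 to 2889 FPKM in Shb-inactivated and from 117 to 4170 FPKM in wild-type libraries. Its defining gene Adgre1, the F4/80 antigen, was 146.56 and 129.2 FPKM in Shb-inactivated replicates 3 and 4 against 150.87 FPKM in wild-type replicate 3, and at most 0.93 FPKM in the other inactivated libraries. Among pan-myeloid genes Ctss, a lysosomal protease, averaged 163 ± 233 FPKM in Shb-inactivated and 229 ± 363 FPKM in wild-type libraries, and the actin bundler Lcp1 averaged 176 ± 75.9 FPKM in Shb-inactivated and 172 ± 107 FPKM in wild-type libraries. Of the 10 pan-myeloid genes 9 were below 0 (median -0.67) and none passed.

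The complement pathway outside C1q was mixed. Of 21 genes for components, receptors and regulators, 17 were tested, none passed in either direction, and 7 were below 0 (median 0.10). The abundant Cd93, an endothelial C-type lectin once named as a C1q receptor, averaged 716 ± 101 FPKM in Shb-inactivated and 580.0 ± 146 FPKM in wild-type libraries, and the chaperone Calr 533 ± 134 FPKM in Shb-inactivated and 504 ± 99.5 FPKM in wild-type libraries. C1s1, a protease that C1q carries, was highest in Shb-inactivated replicate 5, where C1q was low, at 16.65 FPKM. It was 1.75 and 1.88 FPKM in Shb-inactivated replicates 3 and 4 and 2.12 FPKM in wild-type replicate 3, where C1q was high. Its lowest value, 1.71 FPKM, came from wild-type replicate 1, where C1q lay between. Serping1, the C1 inhibitor, was 26.13 FPKM in Shb-inactivated replicate 5, 2.62 FPKM in both replicates 3 and 4, and 2.34 FPKM in wild-type replicate 3. It too was lowest in wild-type replicate 1, at 1.85 FPKM. Cfp, encoding properdin of the alternative pathway, followed the macrophage genes, at 58.91 and 67.77 FPKM in Shb-inactivated replicates 3 and 4 against 133.01 FPKM in wild-type replicate 3.

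Scavenger receptors differed in their profile over the libraries. Of 20 genes listed 19 were found and 15 tested, none passed, and 8 were below 0 (median -0.01). Msr1 was 120.64 and 99.39 FPKM in Shb-inactivated replicates 3 and 4 and 160.22 FPKM in wild-type replicate 3, and under 1 FPKM in the 5 poorest libraries. Stab1, a scavenger receptor of macrophages and some endothelia, stayed at 264 to 708 FPKM in Shb-inactivated and 191 to 592 FPKM in wild-type libraries, highest in the 3 rich ones. Cd36, the fatty acid and thrombospondin receptor, averaged 408 ± 142 FPKM in Shb-inactivated and 353 ± 49.1 FPKM in wild-type libraries and was highest in Shb-inactivated replicate 2, at 653.33 FPKM. Of 12 lysosomal genes all were tested, none passed and 2 were below 0 (median 0.11). Psap, a sphingolipid activator, averaged 449 ± 279 FPKM in Shb-inactivated and 501 ± 464 FPKM in wild-type libraries, and the acid protease Ctsd 437 ± 474 FPKM in Shb-inactivated and 410 ± 491 FPKM in wild-type libraries.

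Partners of CSF1R and CD11b did not pass the test either. Of 12 genes for CSF1 receptor ligands and signalling 11 were tested, none passed and 8 were below 0 (median -0.10), and the kinase Fyn averaged 123 ± 16.5 FPKM in Shb-inactivated and 97.6 ± 17.5 FPKM in wild-type libraries. The lipid phosphatase Inpp5d averaged 38.5 ± 7.49 FPKM in Shb-inactivated and 35.9 ± 13.1 FPKM in wild-type libraries. Of 7 genes for CD11b partners 6 were tested, none passed and 4 were below 0 (median -0.59), and the endothelial ligand Icam2 averaged 161 ± 33.1 FPKM in Shb-inactivated and 146 ± 49.0 FPKM in wild-type libraries. Icam1 averaged 26.5 ± 5.40 FPKM in Shb-inactivated and 25.8 ± 15.9 FPKM in wild-type libraries. Other cells the sort could hold were measured as well. The dendritic cell list summed to 22.5 to 58.6 FPKM in Shb-inactivated and 35.9 to 69.2 FPKM in wild-type libraries, and the T cell list to 6.43 to 31.1 FPKM in Shb-inactivated and 13.1 to 41.3 FPKM in wild-type libraries. The B cell list summed to 17.4 to 131 FPKM in Shb-inactivated and 78.2 to 179 FPKM in wild-type libraries, and the melanoma list to 12.4 to 342 FPKM in Shb-inactivated and 85.4 to 1106 FPKM in wild-type libraries. Each of these 4 lists was highest in wild-type replicate 1. None of their genes passed, nor did any of the monocyte (7 tested, median -0.94), neutrophil (2 tested, median -1.98) or lymphatic list (2 tested, median -0.02). The medians were -0.28 for the dendritic, -0.27 for the T cell, -1.13 for the B cell and -1.58 for the melanoma list. The 10 blood endothelial genes had a median of 0.33, with none passing and all above 0. The part of these cells in the macrophage values was not tested.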

How the data were processed

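Total RNA of MACS-sorted cells was sequenced from a stranded library after ribosomal RNA removal, per the labels' protocols. The authors deposited FPKM per gene symbol, written with a decimal comma and read here as decimal numbers. TopHat2 2.1.1, Cufflinks 2.2.1 and GRCm38 are named in the submitters' processing notes. The authors' annotation and use of strand were not given in the sources used here. FPKM keeps no read totals, so depth and its precision per library are unknown, and no count test was run.

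Groups followed the labels. Genes reaching 1 FPKM or more in 4 or more libraries were tested on log2(FPKM + 1) with limma 3.58.1 (trend, R 4.3.3), Benjamini-Hochberg adjusted over all genes at a threshold of 0.05. The procedure was tested on simulated data, with genes drawn independently and with less spread between libraries than the members had. That check does not cover genes as variable as the members. Exact permutation tests (scipy 1.17.1) ran over all 210 splits. The members and gene lists were chosen with earlier results of these data known. Besides the 10 members and Shb, the text names the 2 most abundant genes of the lists on macrophage biology, the 5 genes most like the members together and the 5 most like Lyve1. Adgre1, Ccr2, Ccl21a, Prox1, C1s1, Serping1, Cfp and the granule genes were chosen after their values were seen. Alternatives covered the pseudocount, filter, scaling, weights, covariate, replicate block and left-out libraries. Replicate numbers did not pair the samples (correlations of same-numbered deviations 0.436, -0.319, 0.707 and -0.546). No libraries were identical.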

Additional observations from a re-analysis of the deposited data

Results flagged for a closer look

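Wild-type replicate 3 stood far from the other 3 wild-type libraries for every member in FPKM, taken without logs. The gap to the nearest library was 0.904 to 0.9497 of the group's range, above Dixon's critical value of 0.829 for 4 samples. For the members, the log scale used in the other tests was not examined this way. It held 588.44 FPKM of C1qa, 537.45 FPKM of C1qb and 390.93 FPKM of C1qc. Mrc1 was 363.3 FPKM, Csf1r 122.96 FPKM and Lyz2 2943.58 FPKM there. Itgam was 109.11 FPKM, Cd68 274.5 FPKM, Lyve1 85.79 FPKM and Cd163 15.5 FPKM. These 10 values come from 1 library and are not separate events.

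The log2 ratio of Lyve1 to Mrc1 in wild-type replicate 4, at 0.70, lay apart from the other wild-type libraries as well, with a gap of 0.833 of the range. In all 22 groups of values were examined and 11 met the criterion. Chance gives about 1 in 20 only for separate groups of normally distributed values. The members were examined as FPKM without logs, and their flagged values all come from wild-type replicate 3. The count is therefore not set against that rate. The pair of rich Shb-inactivated libraries cannot meet it, since each lies next to the other.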

How the results depend on the processing

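No gene passed the threshold under any alternative run (0 of all genes each time). The members' median kept its sign with pseudocounts of 0.1 (-1.22) and 5 (-0.58), without a filter, with a mean of at least 5 FPKM (-1.08, where Cd163 dropped out), with TPM scaling (-1.08), quantile normalization (-0.92) and no trend. Values that changed sign follow with the members' median, and the cause was not tested. With library quality weights, whose estimate stopped short of convergence, the median was 0.27, C1qa 0.27, C1qb 0.28, C1qc 0.27, Mrc1 0.0116, Csf1r 0.26, Itgam 0.0351, Cd68 0.43 and Cd163 0.39. With weights estimated gene by gene, chosen after seeing the data, Cd163 was 0.29 and the median kept its sign (-0.42). With the pan-myeloid covariate the median was 0.15, C1qa 0.16, C1qb 0.13, C1qc 0.14, Mrc1 0.0857, Csf1r 0.28, Cd68 0.36 and Cd163 0.50. With the replicate number as a block the median was 0.27, C1qa 0.27, C1qb 0.17, C1qc 0.26, Mrc1 0.19, Csf1r 0.28, Cd68 0.36 and Cd163 0.48, with 0 calls, though the numbers do not pair the samples. Without the 3 rich libraries Lyve1 turned below 0 (-0.0193). Leaving out 1 library at a time gave medians of -2.04 (without wild-type replicate 4) to 0.32 (without wild-type replicate 3), and 0 to 0 genes past the threshold. Cd163 was also above 0 without Shb-inactivated replicate 1, 2, 5 or 6 (0.0723, 0.0855, 0.0909 and 0.0937), and Lyve1 below 0 without Shb-inactivated replicate 3 or 4 (-0.38 and -0.29) or wild-type replicate 1 or 4 (-0.20 and -0.40). Leaving out libraries from the order of loss was chosen after seeing the data. The ranges were -2.45 to 0.26 for C1qa, -2.38 to 0.25 for C1qb, -2.36 to 0.20 for C1qc, -2.32 to 0.15 for Mrc1, -1.62 to 0.49 for Csf1r, -2.28 to 0.0613 for Lyz2, -1.80 to 0.38 for Itgam, -1.53 to 0.49 for Cd68, -0.40 to 1.23 for Lyve1 and -0.66 to 0.68 for Cd163. The difference in the log2 ratio of Lyve1 to Mrc1 was 1.10 to 2.34. Unknown depth limits what the low values of Cd163 and Itgam can show.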
